A study of Mus musculus with 41 samples.

Results

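Imprinted genes are transcribed mainly from the allele inherited from 1 parent, and 37 of them were followed here across fetal mouse lung RNA. They were a fixed list of symbols, read from the rows present in all 4 deposited count tables. All 37 were found among 24371 symbols, and their counts are given as CPM, which scales each library by its total count to a common size. The study asked how glucocorticoid, the steroid hormone that matures the lung before birth, acts on lung mesenchyme. It measured RNA in 11 bulk libraries and 26 single cells, and 4 chromatin accessibility libraries were not analysed here.

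The first comparison used Twist2Cre;Rosa26mT/mG fetuses, in which Cre driven by Twist2 turns on GFP in a mesenchymal lineage and its descendants. Their mothers received 1 mg/kg of the synthetic glucocorticoid dexamethasone, or saline, at stage E18.5, and lungs were taken 2 hours later. Lungs of a genotype were pooled, and GFP+ tdTomato- cells were sorted, giving 4 dexamethasone and 2 saline pools. The second comparison set 2 CD106+ libraries against 2 CD106- libraries of E18.5 lung. CD106 is the adhesion protein VCAM1, and the genotype and treatment of these fractions are not given in the labels. A single CD106+ library came from lung exposed to 1 mg/kg dexamethasone, and its exposure time is not given. Single cells came from wild type C57Bl6/J lungs at E18.5 after 2 mg/kg dexamethasone (15 cells) or saline (11 cells) given to 8 week old dams 24 hours earlier. The labels do not say whether libraries of a group had separate litters behind them. The p-values therefore cover the spread from library to library, and part of it can be technical.

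In an imprinted cluster, methylation placed in the egg or sperm marks a control region, and the mark decides which parental copy is transcribed. Many genes expressed from the paternal copy promote growth (Igf2, Dlk1, Peg3, Mest), and many expressed from the maternal copy restrain it (Igf2r, Grb10, H19, Cdkn1c). Most of these named genes lie in different clusters. Long noncoding RNAs such as Airn and Kcnq1ot1 silence their neighbours on the same chromosome. The counts carry no allele information. None of the values below says which parental copy was read, or whether a member is imprinted in these cells.

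Bulk libraries held 1670896 to 7133941 counts and cells 215623 to 1787997. The 37 genes took 1.76 to 2.26% of counts in the dexamethasone pools and 2.01 to 2.64% in the saline pools. Their share was 1.34 to 1.65% in CD106+ libraries, 1.79 to 1.92% in CD106- libraries and 1.25% in the treated CD106+ library. The glucocorticoid-induced gene Fkbp5 was at 260, 176, 187 and 178 CPM in the dexamethasone pools against 28.7 and 40.7 in the saline pools. Vcam1, which encodes CD106, was at 551 and 687 CPM in CD106+ libraries and at 1.35 and 3.00 in CD106- libraries. Twist2 itself was at 0 to 1.60 CPM in every bulk library. The pools also differed in ways the treatment label does not name. Xist, transcribed from the inactive X chromosome of female cells, was at 374, 11111, 12.6 and 6.59 CPM in the dexamethasone pools against 33133 and 20880 in the saline pools. The summed cartilage markers were at 7.58, 30.2, 308 and 47.5 CPM against 1259 and 482. Summed smooth muscle markers were at 1059 to 1164 CPM against 1666 and 2017, and summed cardiac markers at 156 to 280 against 328 and 379. For the other marker lists the treated and saline pools overlapped. Smooth muscle and cardiac markers were not used as covariates, and their part in the members' values was not tested.

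Of the 37 genes, 23 had a mean of 50 CPM or more in at least 1 bulk group, and 10 stayed at or under 10 CPM in every bulk library. Those 10 were Mirg, Peg12, Snrpn, Snurf, Ascl2, Phlda2, Slc22a18, Dio3, Magel2 and Mkrn3. Phlda2 and Dio3, a growth inhibitor and the enzyme that inactivates thyroid hormone, had counts in 2 bulk libraries each. Magel2 had counts in 4. Between these sets lay Usp29 (1.42 to 13.2 CPM), Asb4 (0 to 14.2 CPM), Nespas (1.70 to 18.6 CPM) and Impact (15.5 to 46.7 CPM).

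**Figure D1:**
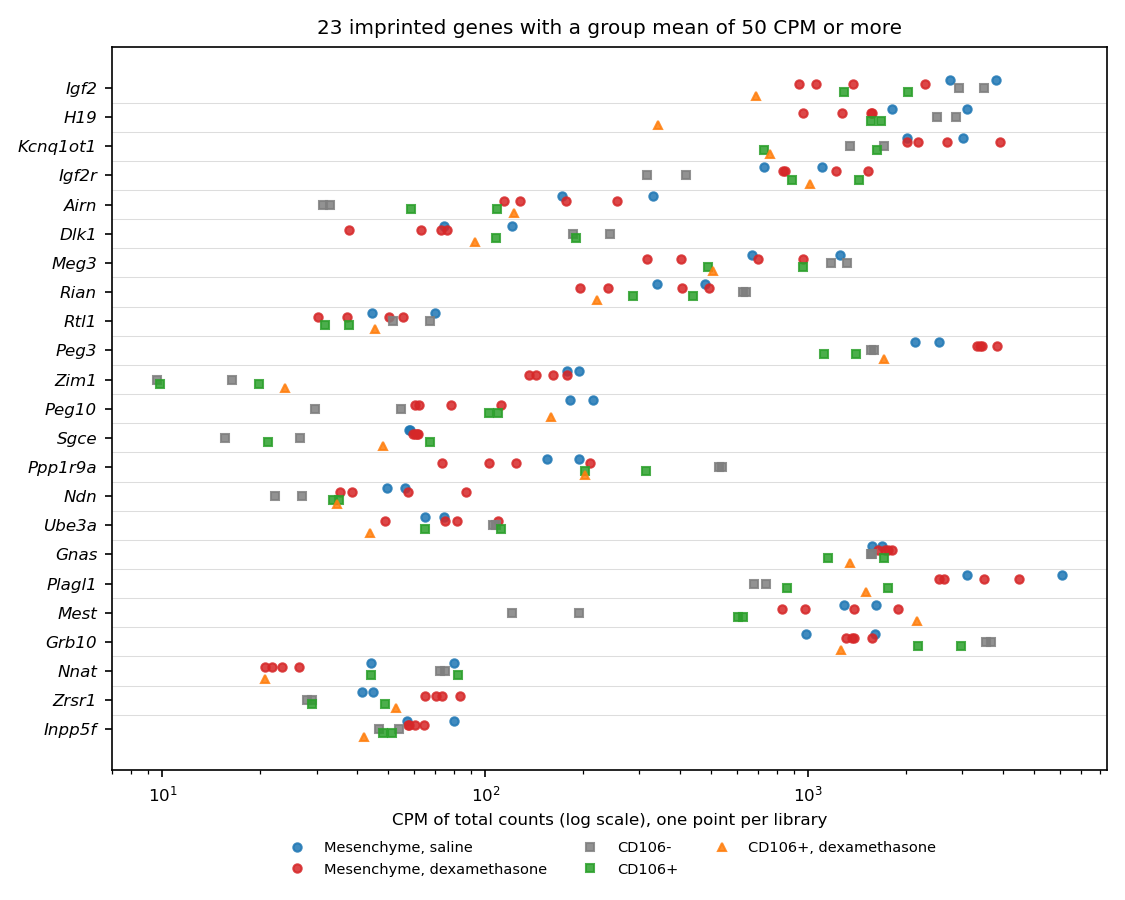
CPM of total counts on a log scale (x axis) for the 23 imprinted genes with a group mean of 50 CPM or more, with 1 point per bulk library coloured by group. Igf2, H19 and Nnat lie lower in the dexamethasone pools than in the saline pools, and Mest, Igf2r and Airn lie higher in CD106+ than in CD106- libraries.

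Start-site sequences were matched by symbol in a RefSeq table of build GRCm38.p6, which covers 250 bases before to 50 bases after each start, and 31 members had an entry. Shown are 250 bases before the start of 3 genes on which the comparisons below turn, and the 163 bases shared by the windows of Peg3 and Usp29, which are transcribed in opposite directions. The Mest stretch lies before the more downstream of its start sites. Capitals mark TGCCGC read on the other strand (GCGGCA), the letters bound by ZFP57, a zinc finger protein that keeps germline methylation in the early embryo.
Mest, chr6:30737800-30738049, + strand: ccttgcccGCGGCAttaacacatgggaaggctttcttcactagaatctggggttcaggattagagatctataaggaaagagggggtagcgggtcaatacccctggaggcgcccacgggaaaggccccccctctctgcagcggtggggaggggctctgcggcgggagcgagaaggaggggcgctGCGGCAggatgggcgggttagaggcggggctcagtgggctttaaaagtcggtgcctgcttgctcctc
Nnat, chr2:157559828-157560077, + strand: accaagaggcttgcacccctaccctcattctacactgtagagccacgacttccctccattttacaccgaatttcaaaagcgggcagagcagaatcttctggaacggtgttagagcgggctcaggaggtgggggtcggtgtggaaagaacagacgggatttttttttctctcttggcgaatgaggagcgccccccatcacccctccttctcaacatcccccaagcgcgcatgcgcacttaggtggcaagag
Airn, chr17:12741061-12741310, + strand: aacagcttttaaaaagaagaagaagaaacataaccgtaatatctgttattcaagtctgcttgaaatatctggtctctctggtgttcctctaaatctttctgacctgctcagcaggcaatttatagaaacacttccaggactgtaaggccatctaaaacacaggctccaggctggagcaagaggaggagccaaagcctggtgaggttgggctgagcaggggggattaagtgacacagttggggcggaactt
Peg3 and Usp29, chr7:6730420-6730582, + strand: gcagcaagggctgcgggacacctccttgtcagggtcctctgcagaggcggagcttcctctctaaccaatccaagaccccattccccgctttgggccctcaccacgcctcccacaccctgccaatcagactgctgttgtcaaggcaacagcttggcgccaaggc

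The Mest stretch holds the letters 2 times within 62.4% GC and 14 CpG pairs. The Nnat stretch has 12 CpG pairs and the Airn stretch 2, and neither holds the letters. Over both strands, TGCCGC was found in 9 of 45 distinct windows of the members, or 20.0%, against 11.6% of 32817 windows in the table. Those windows belong to Grb10, Igf2, Meg3, Mest, Nnat, Plagl1, Snrpn, Snurf and Zim1. The glucocorticoid receptor's palindrome, searched on both strands as GNACA, then 3 free bases, then TGTNC, was in 0 of 45 member windows and in 0.475% of all windows. These counts describe letters in windows of fixed length, and no member window held both motifs.

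Dexamethasone against saline was the first comparison, in sorted mesenchyme. Peg10 and Nnat were called lower in the main test, and none of the 29 members that could be tested was called higher. DESeq2 and limma-voom, tried beside it, each called 3 members lower and 1, Peg3, higher. Peg10 encodes a capsid-like protein derived from a retrotransposon and needed in the placenta, and Nnat a small proteolipid of the endoplasmic reticulum. Across all genes 306 of 11356 passed an adjusted p of 0.05 (2.69%), with 222 higher (1.95%) and 84 lower (0.74%). The test was edgeR's quasi-likelihood test with Benjamini-Hochberg adjustment. The 2 of 29 members stand against 2.69% of all genes. Members lay above 0 in 11 and below in 18 cases, with a median log2 fold change of -0.24 against -0.01 over all genes tested. In 3 members the dexamethasone pools all lay above the saline pools and in 6 all below, against 9.99% and 13.0% of all genes. At an unadjusted p under 0.05 there were 7 members, against 13.8% of genes. The 8 members too low to test were Peg12, Snrpn, Snurf, Ascl2, Phlda2, Slc22a18, Dio3 and Magel2.

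Peg10 (chr6:4747306-4760517) was at 62.5, 78.5, 112 and 60.3 CPM in the dexamethasone pools. In the saline pools it was at 183 and 216 CPM. Every treated pool lay below both saline pools, and the log2 fold change was -1.29 ± 0.26 (SE, adjusted p = 0.011). The call rested in part on the second saline pool, since without it the adjusted p was 0.080. With the mean log2 of CPM plus 1 over the cartilage markers as a covariate, the log2 fold change was -0.64 (adjusted p = 0.97). These markers were lower in every treated pool, so their part and that of the treatment cannot be told apart. Xist was also lower and Ddx3y higher in every treated pool, so fetal sex and treatment cannot be told apart either. With the Xist level as a covariate the log2 fold change was -1.42 (adjusted p = 0.086). In any bulk sample, fewer cells of a type and less RNA per cell cannot be told apart.

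The neighbours of Peg10 on chromosome 6 gave other values. Sgce, epsilon-sarcoglycan, begins beside Peg10 and is read in the opposite direction. It was at 59.9, 61.9, 60.3 and 61.5 CPM after dexamethasone and at 58.1 and 58.4 after saline. Its log2 fold change was 0.13 ± 0.28, so the value was close to level although the groups did not overlap. Ppp1r9a, the actin-binding protein neurabin, was at 73.1, 102, 210 and 124 CPM against 195 and 155, with overlapping groups. Asb4, a ubiquitin ligase adaptor, stayed between 2.26 and 8.38 CPM in these pools.

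Nnat (chr2:157560078-157562525) was at 21.8, 26.5, 20.7 and 23.4 CPM after dexamethasone and at 44.3 and 80.2 CPM after saline. The treated pools were close together and all below the saline pools, with a log2 fold change of -1.36 ± 0.34 (adjusted p = 0.038). This call was lost in 5 of the 6 fits that left out 1 pool. The adjusted p was 0.098, 0.052, 0.071 and 0.081 without dexamethasone pools 1, 2, 3 and 4, and 0.36 without the second saline pool. The log2 fold change was -1.24 with the Xist covariate (adjusted p = 0.30) and -1.69 with the cartilage covariate (adjusted p = 0.71), and neither fit called it. Nnat lies within Blcap, and strand use in counting is not given in the sources used here. Blcap was at 21.5 to 32.9 CPM in the dexamethasone pools and at 26.3 and 27.6 in the saline pools.

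Igf2, the fetal insulin-like growth factor, and H19, the noncoding RNA beside it on chromosome 7, were both lower in every treated pool without passing the threshold. Igf2 was at 937, 1058, 2300 and 1375 CPM against 3815 and 2751 in the saline pools. The log2 fold change was -1.16 ± 0.31 (adjusted p = 0.060). It passed with DESeq2 (adjusted p = 0.0070), with limma-voom (0.012), with the Xist covariate (0.029), without a low-count filter (2.68e-05) and without the third dexamethasone pool (0.0027). With the cartilage covariate its direction turned, to a log2 fold change of 0.08 (adjusted p = 0.9975), and without the first saline pool the value was -0.83 (adjusted p = 0.40). H19 was at 1268, 963, 1577 and 1566 CPM against 3092 and 1814, a log2 fold change of -0.82 ± 0.26 (adjusted p = 0.12). H19 passed without the second saline pool (adjusted p = 0.035) and without a low-count filter (0.013). Its log2 fold change was -0.22 with the cartilage covariate (adjusted p = 0.997) and -0.30 without the first saline pool (adjusted p = 0.78). The ratio of Igf2 counts to H19 counts lay between 0.739 and 2.02 in the 11 bulk libraries, so the pair varied less against each other than either gene did between libraries.

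The members that act on IGF2 or its signal did not pass the threshold. Igf2r, the receptor that clears IGF2, was at 1530, 1218, 834 and 847 CPM against 730 and 1101. Its groups overlapped, with a log2 fold change of 0.35 ± 0.26. Grb10, an adaptor that dampens insulin and IGF receptor signalling, was at 1382, 1570, 1366 and 1312 CPM against 983 and 1613. Airn, the noncoding RNA that runs antisense from within Igf2r, was at 114, 128, 255 and 178 CPM against 330 and 173. For Grb10 and for Airn the treated and saline pools overlapped. Among 17 other genes of the IGF pathway, 14 were tested, and by edgeR 1 rose and 0 fell. DESeq2 called Irs2 and Igfbp3 higher and Igfbp5 lower, and limma-voom called Igfbp3 higher and Igfbp5 lower. The one that rose by edgeR was Igfbp3, an IGF-binding protein, at 246, 168, 103 and 161 CPM against 44.9 and 38.2 (log2 fold change 2.09 ± 0.34, adjusted p = 0.0016). Igfbp5 was lower, at a log2 fold change of -0.91 ± 0.24, and missed the threshold in edgeR (adjusted p = 0.0505). The IGF1 receptor Igf1r was level, at 0.06 ± 0.24.

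The zinc finger genes of the list did not pass. Peg3, a paternally expressed zinc finger protein, was at 3331, 3407, 3847 and 3450 CPM after dexamethasone and at 2541 and 2136 after saline. All treated pools lay above both saline pools, and the log2 fold change was 0.64 ± 0.22 (adjusted p = 0.14). DESeq2 and limma-voom called it (adjusted p = 0.029 and 0.047). Its neighbour Zim1 was at 144, 162, 136 and 178.8 CPM against 178.9 and 195, a log2 fold change of -0.21 ± 0.22. The pair is adjacent on chromosome 7, and its 2 genes lay on different sides of 0. Plagl1, a zinc finger regulator of other imprinted genes, was at 2622, 4497, 3494 and 2546 CPM against 6089 and 3100, with overlapping groups.

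In the Dlk1-Dio3 cluster of chromosome 12, 5 of 6 members were tested and none passed. Dlk1, a Notch-like surface protein, was at 63.2, 72.7, 76.1 and 37.7 CPM against 121 and 74.4. The noncoding RNA Meg3 was at 317, 403, 962 and 700 CPM against 1250 and 668. Rian, a noncoding host of small RNAs, was at 196, 240, 405 and 494 CPM against 480 and 340. In each of the 3 the groups overlapped. Rtl1, a retrotransposon-derived gene needed in the placenta, was at 30.3, 37.4, 55.4 and 50.2 CPM against 70.0 and 44.4. Meg3 and Rian were low together in dexamethasone pools 1 and 2, and the ratio of Meg3 to Rian counts stayed between 1.42 and 2.60 in all bulk libraries.

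The remaining well-expressed members also did not pass. Mest, a hydrolase-like protein of growing mesoderm, was at 1384, 1893, 978 and 831 CPM against 1287 and 1621. Its log2 fold change was -0.13 with an approximate 95% interval of -0.67 to 0.41. Kcnq1ot1, the silencing RNA of the Kcnq1 domain, was at 2025, 2179, 3920 and 2678 CPM against 3018 and 2020. The overlapping Kcnq1 was at 0 to 1.02 CPM in these pools. Gnas, the stimulatory G protein alpha subunit, was at 1727, 1820, 1643 and 1759 CPM against 1576 and 1686. Mest, Kcnq1ot1 and Gnas had overlapping groups. Zrsr1, a splicing factor relative, was at 70.3, 83.3, 73.4 and 64.9 CPM against 44.9 and 41.5. It did not overlap between groups but missed the threshold at a log2 fold change of 0.82 ± 0.29 (adjusted p = 0.17). Zrsr1 lies within Commd1, which was at 0 to 7.40 CPM in these pools. Impact, a regulator of translation, was at 26.3, 29.6, 22.1 and 15.5 CPM against 46.7 and 43.2 (log2 fold change -0.88 ± 0.36, adjusted p = 0.26). Ndn, the MAGE protein necdin, was at 35.5, 87.0, 38.7 and 57.7 CPM against 49.7 and 56.3. The ubiquitin ligase Ube3a was at 75.0, 48.8, 110 and 81.5 CPM against 74.6 and 64.9. The phosphatase Inpp5f was at 64.6, 57.8, 60.3 and 58.1 CPM against 80.2 and 57.2. Groups overlapped for Ndn, Ube3a and Inpp5f.

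Genes outside the list were checked from 2 fixed lists. Of 39 other imprinted genes, 37 were in the tables, 24 were tested and 0 passed by edgeR. At an unadjusted p under 0.05 there were 3, DESeq2 called 0 and limma-voom called 2, Cobl and Dcn. Of 25 genes that set or keep imprints, such as the methyltransferase Dnmt1 and the ZFP57 partner Trim28, 21 were tested and 0 passed by edgeR. At an unadjusted p under 0.05 there were 2, and DESeq2 and limma-voom each called 0. Of those 21 genes, 17 lay below 0, with a median of -0.26.

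**Figure D2:**
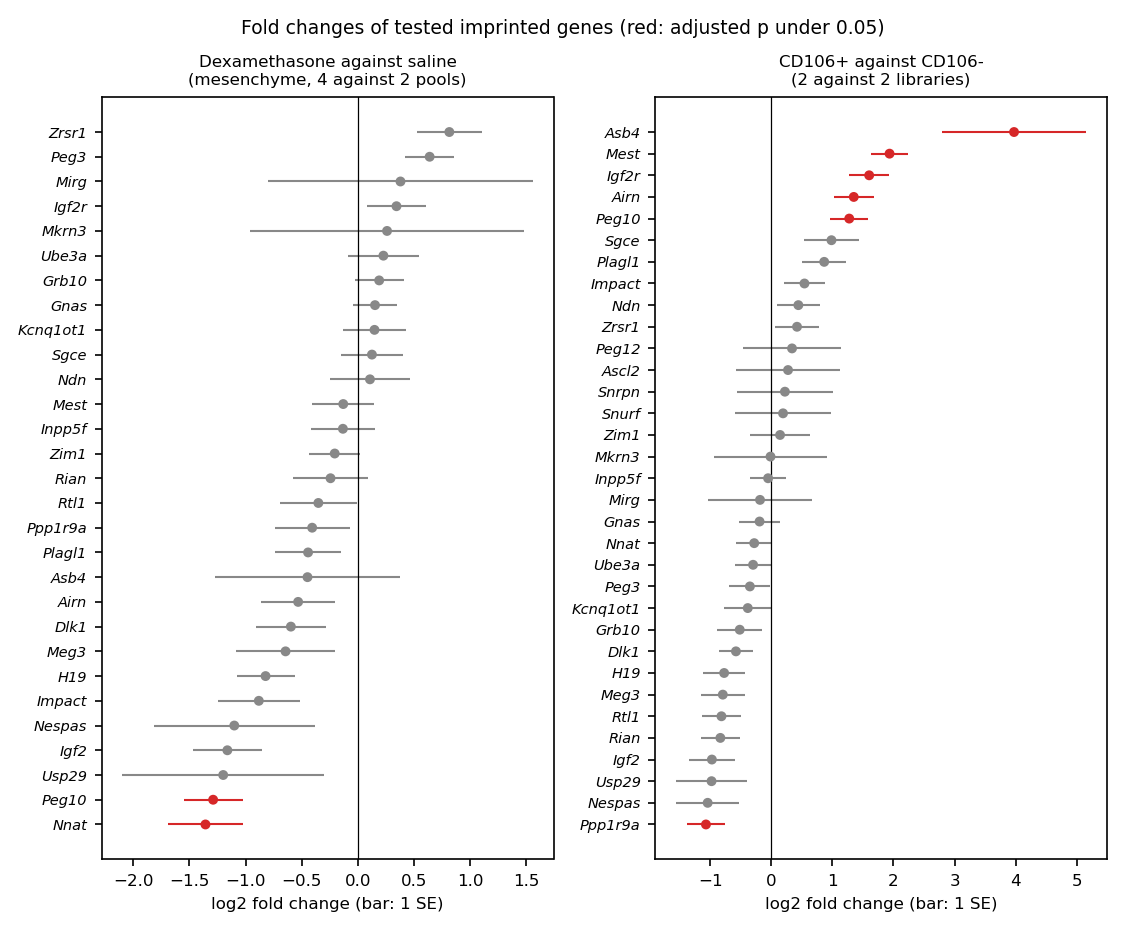
Log2 fold change (x axis, point) and 1 standard error (bar) of each imprinted gene tested, for dexamethasone against saline in mesenchyme (left, 29 genes) and CD106+ against CD106- (right, 33 genes). Red marks an adjusted p under 0.05, which holds for Peg10 and Nnat on the left and for Asb4, Mest, Igf2r, Airn, Peg10 and Ppp1r9a on the right.

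The 2 CD106 fractions were compared next. Mest, Igf2r, Airn, Peg10 and Asb4 were higher in CD106+ libraries, and Ppp1r9a was lower. Across all genes 1239 of 12364 passed (10.0%), 825 higher (6.67%) and 414 lower (3.35%). The 6 of 33 members tested are read against that 10.0%. The median log2 fold change of the members was -0.05, against 0.05 over all genes. Groups did not overlap in 9 members that were higher and 10 that were lower, against 25.7% and 22.1% of all genes (47.7% together). An unadjusted p under 0.05 was reached by 13 members, against 19.8% of genes. Phlda2, Slc22a18, Dio3 and Magel2 were too low to test.

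Mest (chr6:30733506-30748466) was at 628 and 604 CPM in CD106+ libraries and at 195 and 121 CPM in CD106- libraries. The CD106+ values were close together and well above the others, with a log2 fold change of 1.94 ± 0.31 (adjusted p = 8.5e-05). Without the second CD106- library the adjusted p was 0.068. Mest overlaps Copg2 at its end, and Copg2 was at 39.6 and 73.2 CPM against 76.5 and 83.4. The upstream sequence printed above belongs to this gene.

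Igf2r (chr17:12682406-12769706) was at 893 and 1439 CPM in CD106+ libraries and at 317 and 417 CPM in CD106- libraries. Its log2 fold change was 1.60 ± 0.33 (adjusted p = 0.0016). The call was lost without the first CD106- library (adjusted p = 0.27) and without the second (0.064). Airn (chr17:12741311-12859884) was at 108 and 58.9 CPM against 33.1 and 31.5, a log2 fold change of 1.35 ± 0.33 (adjusted p = 0.0082). Airn lost its call without CD106- library 1 (adjusted p = 0.10), CD106- library 2 (0.084) or CD106+ library 1 (0.081). Igf2r and Airn were both higher in the CD106+ fraction, and they overlap on opposite strands. Without stranded counting, reads of the overlap cannot be told apart. The ratio of Igf2r to Airn counts ranged from 2.21 to 24.4 over the bulk libraries, and was 8.25 and 24.4 in CD106+ against 9.59 and 13.2 in CD106- libraries.

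Igf2 and H19 were in the other direction from the receptor. Igf2 was at 2039 and 1285 CPM in CD106+ libraries and at 3507 and 2925 in CD106- libraries. Its log2 fold change was -0.97 ± 0.37 (adjusted p = 0.11). H19 was at 1562 and 1678 CPM against 2872 and 2507, at -0.77 ± 0.35 (adjusted p = 0.20). Both were lower in CD106+ libraries without overlap, and DESeq2 called both (adjusted p = 0.021 and 0.020). The number of members called moved with single libraries. Without the first CD106+ library 15 members passed, 4 higher and 11 lower. Without the first or the second CD106- library 1 member passed, and without the second CD106+ library 9 did.

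Peg10 was at 109 and 103 CPM in CD106+ libraries against 29.6 and 54.8, a log2 fold change of 1.28 ± 0.31 (adjusted p = 0.0084). Without the first CD106- library the adjusted p was 0.42. Its neighbour Sgce was at 21.3 and 67.4 CPM against 15.6 and 26.6, with overlapping groups. Ppp1r9a, farther along the same cluster, was at 315 and 204 CPM against 540 and 530, a log2 fold change of -1.07 ± 0.31 (adjusted p = 0.025). That call was lost without the first (adjusted p = 0.25) or the second (0.29) CD106- library. Peg10 and Ppp1r9a, of 1 cluster, thus went in opposite directions. Asb4 of the same cluster had 38 counts in both CD106+ libraries and 2 in both CD106- libraries. The ratio of CPM was 17.6, with a counting interval of 4.54 to 150 that leaves the spread between libraries aside. Its edgeR log2 fold change was 3.97 ± 1.19 (adjusted p = 0.030), and no fit that left out a library kept the call (adjusted p 0.10 to 0.49).

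The noncoding RNAs of chromosome 12 were lower in CD106+ libraries and did not pass. Meg3 was at 964 and 490 CPM against 1319 and 1178, and Rian at 438 and 286 against 641 and 627. Rtl1 was at 37.9 and 32.0 CPM against 51.7 and 67.6. The groups did not overlap in any of these 3, with log2 fold changes of -0.79 to -0.83 and adjusted p of 0.11 to 0.20. Dlk1 was at 108 and 191 CPM against 243 and 186, with overlap.

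Other well-expressed members had these levels in CD106+ and then CD106- libraries. Plagl1 was at 1764 and 857 CPM against 681 and 741, higher without overlap (log2 fold change 0.87 ± 0.37, adjusted p = 0.16). Grb10 was at 2965 and 2178 CPM against 3538 and 3667, lower without overlap. Peg3 was at 1407 and 1120 CPM against 1592 and 1560, lower without overlap. None of the 3 passed. Kcnq1ot1 was at 1632 and 727 CPM against 1719 and 1347. Gnas was at 1147 and 1710 CPM against 1575 and 1564. Nnat was at 44.3 and 82.0 CPM against 74.8 and 72.4. Overlap held for Kcnq1ot1, Gnas and Nnat. Zim1 was at 19.9 and 9.81 CPM against 9.62 and 16.48, far below its 136 to 195 CPM in sorted mesenchyme, although the tables were made separately and no test was made across them. Ndn was at 35.3 and 33.6 CPM against 27.1 and 22.3. Ube3a was at 112 and 65.1 CPM against 108 and 105.9. These members were not called. Zrsr1 was at 48.9 and 29.0 CPM against 28.1 and 29.0, and Inpp5f at 51.5 and 48.2 against 54.1 and 46.8.

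Markers of other cells differed between the fractions. Summed liver markers were at 407 and 930 CPM in CD106+ libraries against 33.7 and 101. Summed epithelial markers were at 2102 and 3817 CPM against 5077 and 4464. Matrix fibroblast markers, Vcam1 included, were at 2741 and 6197 CPM against 202 and 239. Summed endothelial markers were at 112 and 87.9 CPM in CD106+ libraries against 17.7 and 13.3, with Cdh5, Emcn, Pecam1 and Tek called higher. Summed mesothelial markers were at 18.2 and 22.6 CPM against 100.4 and 96.9, with Aldh1a2, Lrrn4 and Wt1 called lower. The part of these cells in the members' differences was not tested. In single cells, Mest and the summed endothelial markers had a Spearman correlation of 0.48 over 26 cells. It was 0.22 over the dexamethasone and 0.91 over the saline cells, which share capture and depth. That pair is 1 of many pairs of gene and marker list computed, and is given as a description. Igf2r gave 0.005 with the endothelial markers over 26 cells, and Igf2 gave -0.72 with the matrix fibroblast markers. Of the other imprinted genes 25 were tested, 2 were higher (Dcn, Slc38a4) and 3 lower (Cobl, Pon3, Zdbf2). Decorin (Dcn), a small proteoglycan, was at 74.8 and 115 CPM against 20.4 and 17.0 (log2 fold change 2.29 ± 0.32, adjusted p = 1.1e-05). The transporter Slc38a4 was at 130 and 161 CPM against 73.9 and 71.4 (log2 fold change 0.95 ± 0.27, adjusted p = 0.020). Cobl, Pon3 and Zdbf2 had log2 fold changes of -1.06, -1.27 and -1.12. Of 15 IGF pathway genes tested, Igfbp4 (log2 fold change 3.06) and the protease Pappa (1.23) were higher and Igfbp5 (-1.26) lower. Of 21 genes that set or keep imprints, 0 passed by edgeR, DESeq2 or limma-voom, and 0 had an unadjusted p under 0.05 in edgeR.

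**Figure D3:**
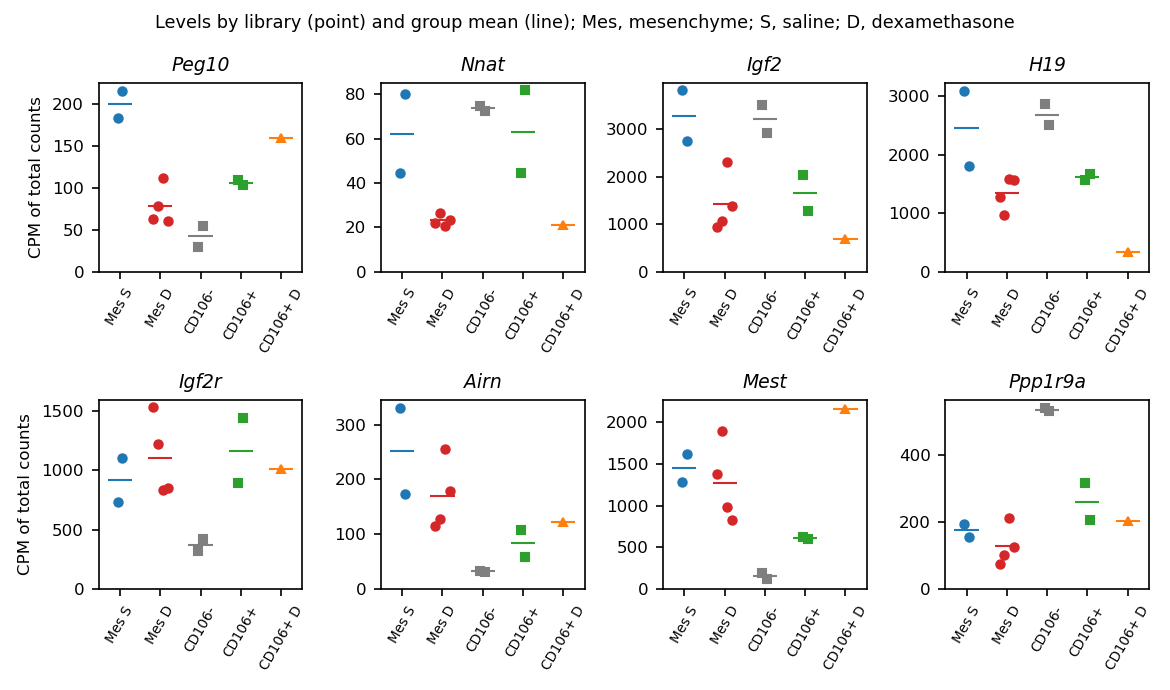
CPM of total counts (y axis, from 0) by library (point) with the group mean (line) for 8 imprinted genes, in saline and dexamethasone mesenchyme, CD106-, CD106+ and the treated CD106+ library. Peg10 is low in the 4 dexamethasone pools but at 159 CPM in the treated CD106+ library, and Mest reaches its highest value of these libraries, 2163 CPM, in that library.

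The treated CD106+ library was then set beside the 2 CD106+ libraries. It is a single library in a table of its own, so no replicate check exists for the differences and they are given as log2 ratios of CPM plus 1. Mest and Asb4 were 2-fold or more above the mean of the other CD106+ libraries, whose labels name no treatment, and H19, Nnat, Igf2 and Grb10 2-fold or more below. The count of 6 of 25 members at 10 CPM or more stands against 29.6% of 9792 genes (11.9% higher and 17.7% lower). Of the 25 members 18 lay outside both of those libraries, 8 above and 10 below, against 79.1% of all genes. Their median log2 ratio of -0.20 was near the -0.23 of all genes.

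Mest was at 2163 CPM against 628 and 604, a log2 ratio of 1.81. Asb4 was at 14.2 CPM against 3.81 and 2.66. Both lay above each of the other CD106+ libraries. H19 was at 342 CPM against 1562 and 1678, a log2 ratio of -2.24, and Igf2 at 689 against 2039 and 1285 (-1.27). Nnat was at 20.8 CPM against 44.3 and 82.0 (-1.55). Grb10 was at 1262 CPM against 2965 and 2178, a log2 ratio of -1.03 at the edge of the 2-fold limit. In each of these 4 the treated library lay below both of the others.

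Peg10 was at 159 CPM against 109 and 103, Peg3 at 1719 against 1407 and 1120, and Airn at 123 against 108 and 58.9. Zim1 was at 24.0 CPM against 19.9 and 9.81, Zrsr1 at 53.0 against 48.9 and 29.0, and Rtl1 at 45.4 against 37.9 and 32.0. All 6 lay above both other CD106+ libraries by less than 2-fold. Kcnq1ot1 (761 CPM), Meg3 (507), Plagl1 (1505), Igf2r (1013), Gnas (1349), Sgce (48.3) and Ndn (34.8) lay between the 2 other libraries. Dlk1 (93.1 CPM), Rian (222), Ube3a (43.9), Ppp1r9a (203), Inpp5f (42.2) and Impact (29.8) lay below both.

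An edgeR fit that took the spread from the CD106+ and CD106- libraries called 3 of 34 members, Mest, H19 and Nnat, against 13.4% of genes. The spread of treated CD106+ libraries is unknown, so this fit compares that 1 library and not the treatment. The treated library also held summed endothelial markers of 2240 CPM, against 112 and 87.9, with Pecam1 at 508 against 22.1 and 16.54. Liver markers were at 5.80 CPM against 407 and 930, and Vcam1 was at 268 against 551 and 687. The part of these cell markers in the members' ratios was not tested.

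**Figure D4:**
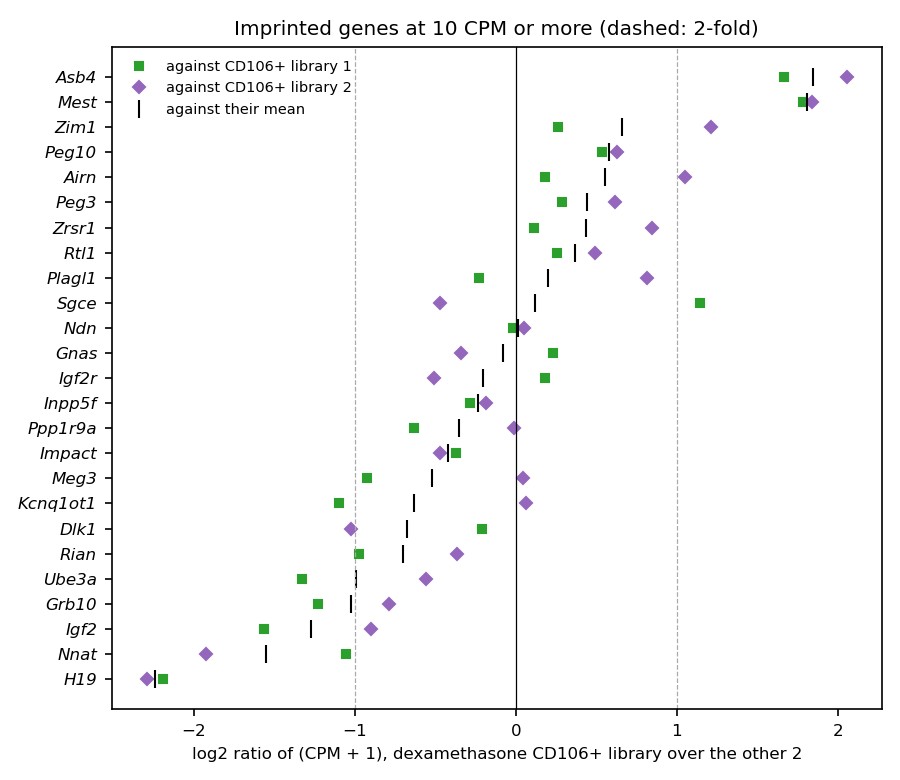
Log2 ratio of CPM plus 1 (x axis) in the treated CD106+ library over CD106+ library 1 (square), library 2 (diamond) and their mean (tick), for 25 imprinted genes, with dashed lines at 2-fold. Mest and Asb4 lie beyond 2-fold above and H19, Nnat, Igf2 and Grb10 beyond 2-fold below by their mean.

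Sorted mesenchyme and the CD106+ cells thus gave 2 exposures to dexamethasone with separate controls. Of the 25 members at 10 CPM or more in the CD106+ libraries, 6 did not overlap their controls in either setting and had the same direction in both, against 11.6% of 9792 genes. In 2 members without overlap the directions were opposite, against 6.43% of genes. Igf2, H19, Nnat and Impact were lower in both, and Peg3 and Zrsr1 higher in both. Peg10 and Zim1 were lower in mesenchyme and higher in the CD106+ library. The 2 settings differ in sorting, table and, as far as the labels go, exposure time.

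Single cells showed how unevenly the same genes were counted from cell to cell. Each treatment is 1 sample of cells, so no test was made. The intervals of summed CPM treat each read as an independent count and leave the spread between cells aside. Reads carried no molecular identifiers, so amplified copies were counted again and these intervals are too narrow. A cell held 5 to 15 members at 10 CPM or more, with a median of 10. Igf2r was the one member at 10 CPM or more in all 26 cells. Grb10 reached that level in 25 cells, Gnas in 24, Peg3 in 21 and Mest and Ube3a in 20 each. Plagl1 did so in 16, Meg3 and Kcnq1ot1 in 15, Impact in 14 and Sgce in 10. The other members did so in 9 cells or fewer.

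No count was found for 10 members in any of the 26 cells. They were Mirg, Peg10, Zim1, Ascl2, Phlda2, Rtl1, Dio3, Usp29, Magel2 and Mkrn3. Over 27968974 counts in all cells, a count of 0 allows up to 0.107 CPM if reads are independent counts. By cells, 0 of 26 allows up to 11.5% of cells with a count, which is no limit on cells that express the gene. Of these, Peg10 was at 60.3 to 216 CPM, Zim1 at 136 to 195 and Rtl1 at 30.3 to 70.0 in the sorted mesenchyme pools. Rian, at 196 to 494 CPM in those pools, reached 10 CPM in 1 cell (saline cell 2, at 120 CPM).

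Igf2 and H19 were counted in few cells. Igf2 was at 10 CPM or more in 2 of 15 dexamethasone cells and 5 of 11 saline cells, and H19 in 3 and 4. Both genes reached 10 CPM in 5 cells, 1 alone in 4 cells and neither in 17. Dexamethasone cell 3 held 81.5% of the Igf2 counts of its group, and saline cell 2, at 8205 CPM, held 71.7% of the H19 counts of the saline cells. Summed over cells, Igf2 was at 118 CPM (95% interval 112 to 124) after dexamethasone and at 206 (199 to 214) after saline. H19 was at 102 CPM (96.6 to 108) and 1178 (1161 to 1196). Both sums were lower in the treated cells, and each rests on a few cells.

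Of 23 members at 10 CPM or more in the summed counts of either group, 3 were 2-fold or more higher after dexamethasone and 12 lower. The background was 65.8% of 8813 genes, 29.3% higher and 36.5% lower. The members' median log2 ratio was -1.04 against -0.20 over all genes. The 3 that were higher were Peg3, Nnat and Asb4. Peg3 was at 792 CPM (777 to 808) against 341 (332 to 351), with 46.7% of the dexamethasone counts in cell 5. Nnat had counts in 4 dexamethasone cells (151.5, 114, 60.6 and 59.0 CPM) and in no saline cell. Its summed 25.7 CPM is 127-fold the 0.202 CPM that 3 counts over the saline cells would give. That ratio is a lower limit only if reads are independent counts, and amplified copies were counted again here. By cells, the interval for the share at 10 CPM or more was 7.79 to 55.1% after dexamethasone and 0 to 28.5% after saline. These intervals overlap, so the cells set no minimum on the difference. The higher Nnat sum after dexamethasone is opposite in direction to both bulk settings, at 24 hours and 2 mg/kg, and was not tested. Asb4 lay in 1 dexamethasone cell, at 831 CPM. The 2 groups of cells also differed in markers and depth. Summed matrix fibroblast markers had a median of 25722 CPM in the dexamethasone cells and 6545 in the saline cells. Summed endothelial markers reached 100 CPM in 2 of 15 dexamethasone cells and 6 of 11 saline cells. Median depth was 852850 and 1349765 counts. The part of these differences in the members' ratios was not tested.

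Mest was nearly equal in the sums, at 873 CPM (857 to 889) after dexamethasone and 990 (974 to 1006) after saline. It exceeded 1000 CPM in 5 dexamethasone cells (1380, 2348, 1774, 2489 and 1481 CPM) and in 4 saline cells (2467, 3356, 1225 and 2969 CPM). The other 7 saline cells were at 2.22 to 104 CPM. All 4 of those saline cells carried the endothelial gene Pecam1 above 100 CPM, as did saline cell 10, where Mest was at 69.1 CPM. In the dexamethasone cells, Pecam1 passed 100 CPM in cell 9 alone, where Mest was at 2489 CPM. Without the 6 cells above 100 CPM of Pecam1 the log2 ratio of Mest was 4.01 in place of -0.18. Summed epithelial markers were at 5.84 to 8288 CPM (median 272) in the dexamethasone cells and at 13.8 to 724 CPM (median 73.3) in the saline cells, with Epcam at 0 in all 26. They reached 100 CPM in 10 and 4 cells, and their part in the members' values was not tested.

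Over the 26 cells, 11 members at 10 CPM or more in at least 10 cells gave 55 pairs with a median Spearman correlation of 0.027. The range was -0.61 (Peg3 with Impact) to 0.36 (Sgce with Ube3a). The points share capture and sequencing depth, so these are descriptions with n = 26. Every dexamethasone column name carries a prefix that no saline column has. Of the cell codes, 1 occurs in both treatments once the prefix is removed.

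**Figure D5:**
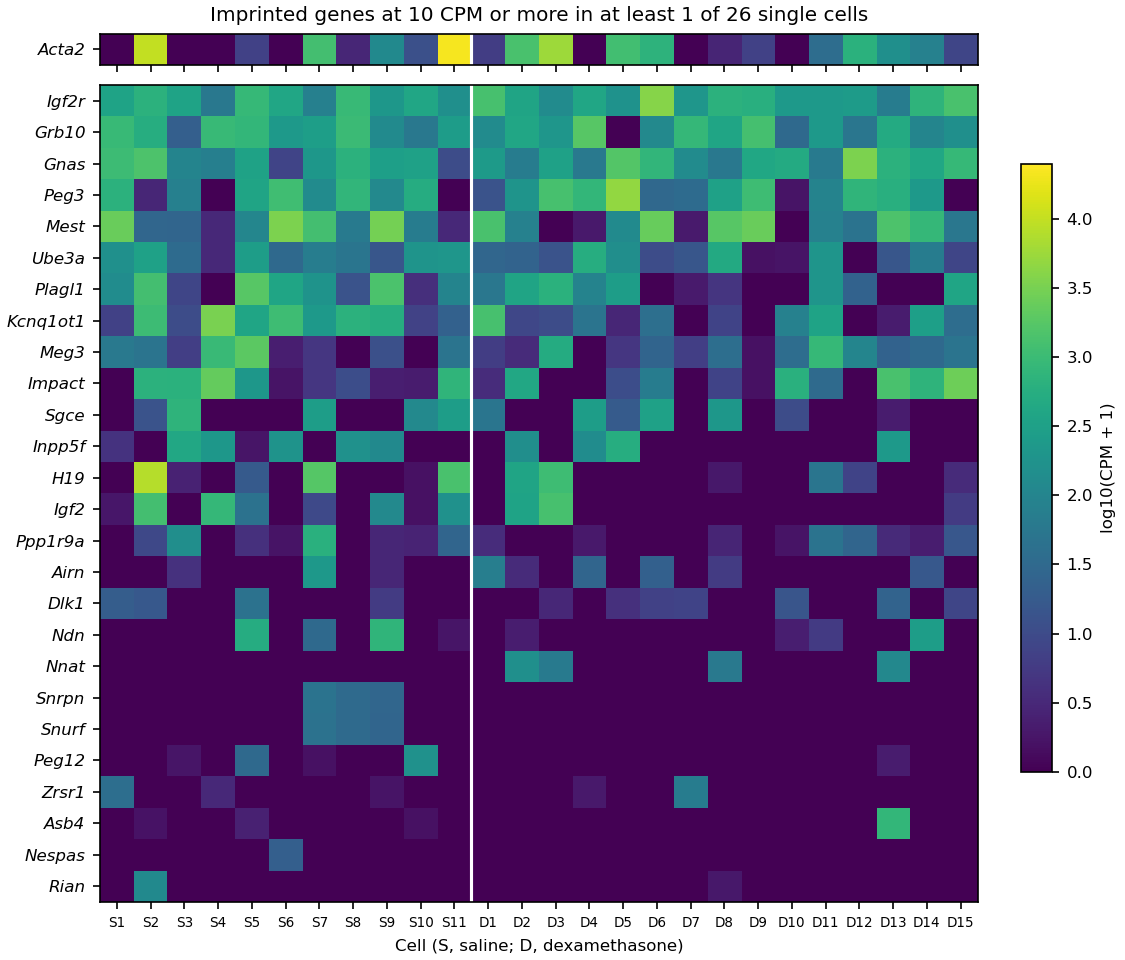
Heat map of log10(CPM + 1) for 26 imprinted genes (rows) that reached 10 CPM in at least 1 cell, across 11 saline and 15 dexamethasone single cells (columns), with Acta2 as the top strip. Igf2r is at 10 CPM or more in all 26 cells, while Igf2 and H19 are each at that level in 7.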

How the data were processed

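RNA counts of 11 bulk libraries and 26 single cells were used. The deposited tables hold estimated counts (expected counts) per gene symbol, made by the authors, as the fractional values show. The submitters' processing notes list mm10 as the build and name TopHat2, Bowtie2, Trim Galore, Partek, HOMER and MACS2 without versions or roles. How reads were assigned to genes, and whether by strand, is not given in the sources used here. The treated CD106+ column has a code that matches no label, and only that sample's description points to its table. RefSeq (GRCm38.p6) matched 23062 of 24371 symbols and gave positions.

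Counts were rounded, filtered with filterByExpr, scaled by TMM and compared with edgeR 4.0.16 (R 4.3.3, limma 3.58.1), quasi-likelihood test, adjusted over all genes at 0.05. SE is the log2 fold change divided by the square root of F. Printed levels are CPM of total counts. Untested ratios used a pseudocount of 1. No doublet caller was run on the cells. Replicates differed beyond sampling noise (chi-square per degree of freedom 9.94 to 40.4). The fits were tested on simulated data. The members and lists were chosen with earlier results of these data known. Values per library are given for members called in a tested comparison or with a group mean of 50 CPM or more, and other lists name their called genes. Acta2, Ddx3y, Trim28, Dnmt1, Igf1r, Blcap, Copg2 and Impact were named outside that rule. Exon lengths were not used here, so levels are not compared between genes. Igf2, Mest, Ube3a, Snrpn and Snurf had fractional counts in all bulk libraries, so reads shared with other genes make them uncertain. The same holds for H19, Grb10 and Gnas in 10 bulk libraries, Airn in 9, Peg3 in 7 and Meg3 in 6. Dlk1 and Nnat had fractional counts in 3, Sgce in 2 and Kcnq1ot1 in 1. For Snrpn and Snurf, shared reads were divided differently in the dexamethasone and saline mesenchyme pools, as the last paragraph gives. Other scalings and filters, DESeq2 1.42.0, limma-voom, a replicate block, 2 covariates and left-out libraries were tried.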

Additional observations from a re-analysis of the deposited data

Results flagged for a closer look

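Peg10 and Zim1 went in opposite directions under dexamethasone in the 2 bulk settings, with every treated library on 1 side of its controls. In mesenchyme Peg10 was at 60.3 to 112 CPM in the 4 treated pools against 183 and 216 CPM, and in the treated CD106+ library it was at 159 CPM against 109 and 103 CPM, a log2 ratio of 0.58. Zim1 was at 136 to 178.8 CPM in treated mesenchyme against 178.9 and 195 CPM, so its mesenchyme groups all but touched, and in the treated CD106+ library at 24.0 CPM against 19.9 and 9.81 CPM, a log2 ratio of 0.66. The difference between settings was not tested, and the CD106+ side is 1 library. Among the 27 members examined for a single far value in the 4 dexamethasone pools, 0 had one, where chance gives about 1 in 20.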

How the results depend on the processing

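In the mesenchyme comparison, 306 genes and 2 members passed. The genes were 598 without the low-count filter, 512 by DESeq2, 186 with the Xist covariate and 25 with the cartilage covariate. The members were 4 without the filter, 4 by DESeq2, 4 by limma-voom, 1 (Igf2) with the Xist covariate and 0 with the cartilage covariate in edgeR, where 5 had an unadjusted p under 0.05. Leaving out 1 pool gave 179 to 335 genes and 1 to 2 members. Whether replicate numbers pair the libraries is not settled, and the main fits used no pairing. Over all genes tested, deviations of same-numbered libraries correlated at -0.052 and 0.055 in mesenchyme and at 0.005 in CD106. With as few as 2 libraries in a group, such a correlation cannot exclude pairing. With the number as a block, 154 genes and 2 members passed in mesenchyme, with Igf2 called (adjusted p = 0.022) and Nnat not called (0.22). Dexamethasone pools 3 and 4 have no saline pool of the same number. The fold changes of that fit therefore rest on pools 1 and 2 of each group. In CD106 the block gave 1276 genes and 5 members, without Ppp1r9a (0.053). Leaving out 1 CD106 library gave 546 to 2756 genes and 1 to 15 members, where a lone library is assumed to vary like the others. For the treated CD106+ library, 6 members were past 2-fold, 5 to 9 under the other settings, and 3 were called in the edgeR fit with pooled spread. In single cells, the log2 ratio of Airn was -1.43 and turned to 2.91 without the cells above 100 CPM of Pecam1. The cause of these changes was not tested, other than the smaller number of libraries or genes in a fit. DESeq2 size factors, upper quartile scaling and removal of Rn45s left both counts of members at 2 and 6. Counts of 0 limit statements on the 10 genes not counted in cells to 0.107 CPM, if reads are independent counts.

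Members that were not called changed sign in 42 refitted values (19 members) in mesenchyme and in 22 (13 members) in CD106, and 0 of these values were called. In mesenchyme the cartilage covariate turned the log2 fold changes of Igf2 (0.081), Meg3 (0.93), Ppp1r9a (0.89), Rian (0.74), Airn (0.74), Rtl1 (0.54), Nespas (0.26), Usp29 (0.17), Igf2r (-0.50), Mkrn3 (-0.37), Ndn (-0.33) and Grb10 (-0.0093). The Xist covariate gave Mest 0.58, Mirg -1.11, Mkrn3 -1.13, Ube3a -0.49 and Kcnq1ot1 -0.34. The replicate block gave Mest 0.22, Mirg -1.06, Mkrn3 -0.58, Kcnq1ot1 -0.18 and Ube3a -0.15, and in CD106 Mkrn3 0.22. limma-voom gave Mkrn3 -0.29, Mirg -0.10 and Ndn -0.0056, and in CD106 Mkrn3 0.24, Ascl2 -0.033 and Zim1 -0.0008. Leaving out 1 mesenchyme pool gave Airn -0.94 to 0.085, Asb4 -0.95 to 0.32, Grb10 -0.069 to 0.54, Inpp5f -0.39 to 0.20, Kcnq1ot1 -0.14 to 0.54, Mest -0.36 to 0.018, Mirg -0.29 to 1.54, Mkrn3 -0.46 to 2.26, Ndn -0.19 to 0.28, Nespas -1.74 to 0.048, Plagl1 -0.87 to 0.21, Rian -0.51 to 0.10, Rtl1 -0.68 to 0.084, Usp29 -1.98 to 0.52. Leaving out 1 CD106 library gave Ascl2 -0.79 to 0.93, Gnas -0.42 to 0.0078, Inpp5f -0.18 to 0.068, Kcnq1ot1 -1.19 to 0.13, Mirg -0.56 to 0.30, Mkrn3 -0.71 to 1.29, Nnat -0.70 to 0.041, Peg12 -0.28 to 0.74, Snrpn -0.23 to 0.86, Snurf -0.24 to 0.78, Ube3a -0.83 to 0.10, Zim1 -0.54 to 0.63, Zrsr1 -0.091 to 0.81.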

Other observations

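H19 was set beside smooth muscle genes in the single cells after its values were seen, as a description. The cuts below were set on these same cells. Acta2, smooth muscle actin, was above 1000 CPM in 6 of 26 cells, and 5 of them held H19 above 300 CPM. These were saline cells 11, 2 and 7 (H19 at 1354, 8205 and 1733 CPM) and dexamethasone cells 3 and 2 (1077 and 367 CPM). The sixth, dexamethasone cell 5, had no H19 count. Next by Acta2 were dexamethasone cells 6 and 12 (701 and 643 CPM), with H19 at 0 and 6.53 CPM. Saline cell 7 also carried the endothelial genes Pecam1 and Cdh5, at 196 and 194 CPM. In the other 20 cells H19 was at most 51.0 CPM. The Spearman correlation of H19 with the summed smooth muscle markers was 0.61 over 26 cells, 0.81 over the saline and 0.37 over the dexamethasone cells, and with the matrix fibroblast markers it was -0.52. Igf2 gave 0.40 and -0.72. In the mesenchyme pools the summed smooth muscle markers were at 1059 to 1164 CPM after dexamethasone and at 1666 and 2017 CPM after saline. They were at 287 and 650 CPM in CD106+ libraries, where H19 was lower, against 128 and 263 CPM in CD106- libraries. In the treated CD106+ library, where H19 was at 342 CPM, they were at 230 CPM. The part of smooth muscle cells in the bulk H19 values was not tested.

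Snrpn and Snurf, which overlap and share reads, were counted at a fixed proportion. The ratio of their counts was 1.33 in each of the 4 dexamethasone mesenchyme pools and 1.03 to 1.04 in the other bulk libraries, so the 2 rows carry no separate information. Both saline mesenchyme pools were at 1.03, so shared reads of this pair were divided differently in the 2 treatment groups. Whether this holds for other members with fractional counts was not tested. For such members, the division of reads and the treatment cannot be told apart.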
